A study of Arabidopsis thaliana with 6 samples.

Results

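The genes described here encode the large subunits of the nuclear RNA polymerases of Arabidopsis thaliana. They were chosen by locus tag. The largest subunits were NRPA1 (AT3G57660, polymerase I), NRPB1 (AT4G35800, polymerase II), NRPC1 (AT5G60040, polymerase III), NRPD1 (AT1G63020, polymerase IV) and NRPE1 (AT2G40030, polymerase V). The second subunits were NRPB2 (AT4G21710, polymerase II) and NRPD2 (AT3G23780), which polymerases IV and V share. All 7 were found in the RefSeq gene table, among 27444 protein-coding genes and 37899 annotated genes in all. The table lists NRPD1, NRPE1 and NRPD2 under the symbols NRPD1A, NRPD1B and NRPD2A.

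The samples were young leaves of plants of the Columbia-0 accession grown in soil under short days at 22.5C. Chromatin carrying histone H3 monomethylated at lysine 27 (H3K27me1) was immunoprecipitated in 2 samples, DNA carrying 5-methylcytosine (5mC) in 2 samples, and 2 further samples were inputs of the methylated DNA assay. Each mark is represented by 1 deposited list of enriched domains, in which every domain has a position and a number of reads. There is therefore 1 value per mark and gene, with no value per sample, no replicate error and no test over samples, and leaf tissue could not be checked against markers. Coverage below is the share of a gene, from annotated start to end, that lies in domains, and a gene is called touched if it has at least 1 bp in a domain. A gene said to have a mark, or neither mark, has or lacks bases in the lists. Signal too weak to be called a domain cannot be seen in them, so a gene without a domain may still carry the mark.

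RNA polymerases I, II and III make ribosomal, messenger and small structural RNAs in all eukaryotes. Plants also have polymerases IV and V, which descend from polymerase II and act in RNA-directed DNA methylation. Polymerase IV makes the precursors of small interfering RNAs, and polymerase V makes the transcripts at target loci to which these RNAs guide the methylation machinery. H3K27me1 is a mark of plant heterochromatin, and 5mC marks transposons but also occurs within the bodies of many expressed genes.

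The comparison of the polymerase classes asked whether the genes of polymerases I to III and those of IV and V carry the marks alike. H3K27me1 domains lay in all 3 genes of polymerases IV and V, where they covered 22.6 to 45.5% of each gene. They lay in 1 of the 4 genes of polymerases I to III, NRPC1, over 5.78%. 5mC was found in 1 gene of each class, with 35.7% of NRPB1 and 11.4% of NRPD1 covered. NRPA1 and NRPB2 had no base in either list. Of protein-coding genes on chromosome arms in the members' range of lengths, 25.3% were touched by H3K27me1 and 44.8% by 5mC. The 1 of 4 genes of polymerases I to III with H3K27me1 was thus near the share among such genes.

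Pooled over bases, H3K27me1 domains held 8700 of 23802 bp in the genes of polymerases IV and V, or 36.6%. In the genes of polymerases I to III they held 600 of 34661 bp, or 1.73%. For 5mC the pooled shares were 3.78% and 7.79%, and this order rested on NRPB1: without that gene the 5mC share of polymerases I to III was 0 and the difference, IV and V minus I to III, turned from -4.01 to 3.78 percentage points. The H3K27me1 difference was 34.8 percentage points. With all domains it kept its direction when any 1 gene was left out. It fell to 21.4 with domains of at least 1000 bp and to 16.4 with domains shortened by 1 calling window at both ends. With domains whose reads per kb exceeded the median of the list it was 8.82 and rested on NRPD1 alone. No other member had a base in those denser H3K27me1 domains.

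All 7 genes lay on chromosome arms and were long, from 6638 bp (NRPD2) to 10383 bp (NRPC1). Long genes were touched more often by 5mC and little more often by H3K27me1. Protein-coding arm genes in the same range of lengths therefore give the background. Of 458 such genes besides the members, 25.3% were touched by H3K27me1 and 44.8% by 5mC. Over all protein-coding genes these shares were 22.3% and 15.6%. Among the members 4 of 7 were touched by H3K27me1 and 2 of 7 by 5mC. H3K27me1 domains held 15.9% of the members' bases against 3.63% in the genes of like length, and 5mC domains 6.16% against 3.71%. Over all protein-coding genes the pooled shares were 7.70% for H3K27me1 and 3.79% for 5mC. The median gene of like length had 0% in either list. By share of gene length, 7.09% of the other protein-coding arm genes of any length had at least the H3K27me1 coverage of NRPD1. For NRPE1 this was 8.86%, for NRPD2 14.0% and for NRPC1 20.5%, and for the 5mC coverage of NRPB1 it was 2.61%. These shares are descriptions and were not tested.

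**Figure D1:**
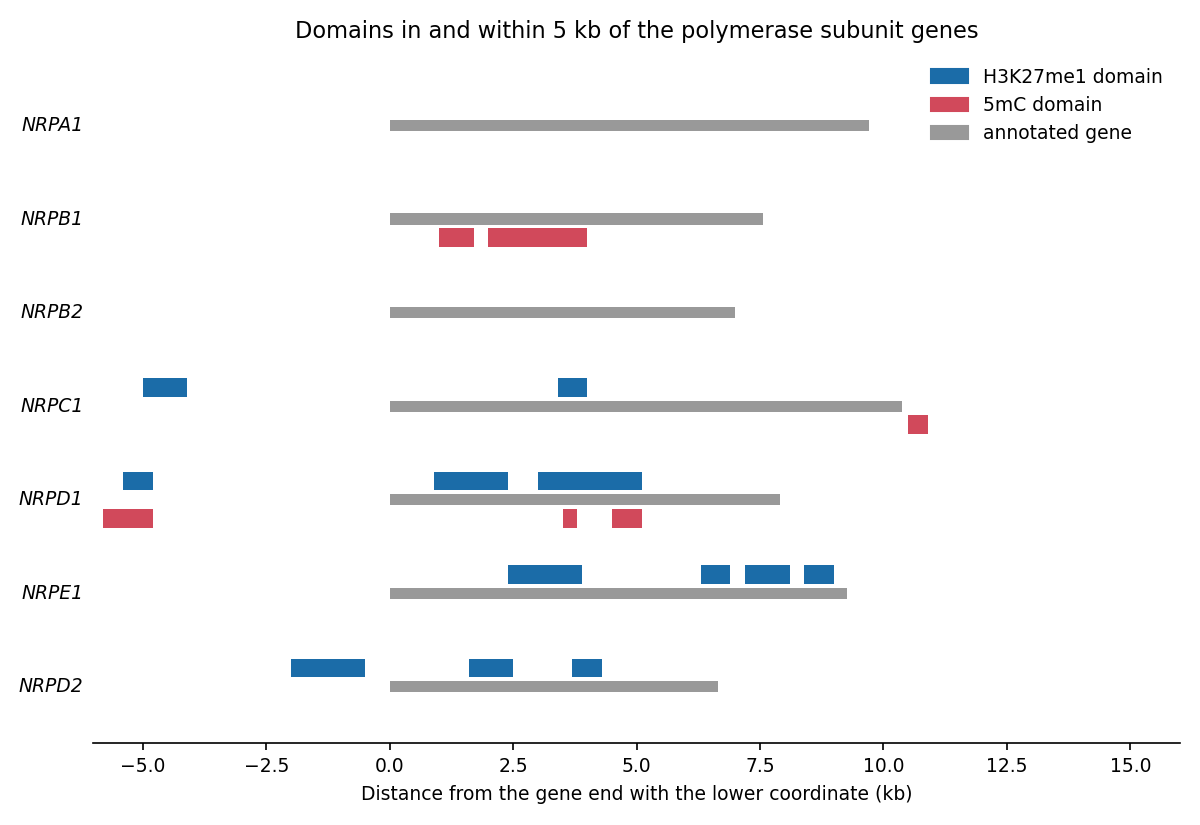
Domains in the 7 genes and up to 5 kb beyond, with each gene drawn from its end with the lower coordinate (kb) as a grey bar, H3K27me1 domains above it and 5mC domains below it. NRPD1, NRPE1 and NRPD2 hold 8 of the 9 H3K27me1 domains found inside the genes, and NRPB1 holds the widest stretch of 5mC.

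NRPD1, the largest subunit of polymerase IV, was the most widely covered member. Its 7905 bp held H3K27me1 domains on chromosome 1 from 23355601 to 23357100 (TAIR10), 1500 bp with 605 reads, and from 23357701 to 23359800, 2100 bp with 1167 reads. They were 600 bp apart and reached from 0.9 to 5.1 kb of the gene, counted from its end with the lower coordinate because the strand was not used here. The remaining 2.8 kb towards the other end had no domain of either mark. Of 526 protein-coding arm genes within 20% of its length, 9 (1.71%) had at least as many bases in H3K27me1 domains.

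NRPD1 was also the only member with both marks. Its 5mC domains, from 23358151 to 23358450 (300 bp, 189 reads) and from 23359201 to 23359800 (600 bp, 315 reads), both lay wholly inside the wider H3K27me1 domain. The second of them ended at the same base as that domain. Thus 100% of the 5mC bases and 25.0% of the H3K27me1 bases of NRPD1 lay in both lists. Of the genes of like length, 13.8% were touched by both lists and 7.21% held bases where the lists overlap, against 1 of 7 members for each. Among the 526 genes within 20% of the length of NRPD1, 43 (8.17%) had at least as many 5mC bases.

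NRPE1, its counterpart in polymerase V, had as many bases in H3K27me1 domains as NRPD1, 3600 bp, and none in 5mC domains. Because NRPE1 is longer, this came to 38.9% of its 9259 bp. A domain from 16716901 to 16718400 on chromosome 2 (1500 bp, 494 reads) lay 2.4 kb from the end with the lower coordinate. Another 3 domains ran towards the opposite end, from 16720801 to 16721400 (600 bp, 203 reads), from 16721701 to 16722600 (900 bp, 283 reads) and from 16722901 to 16723500 (600 bp, 249 reads). The gaps between these 3 were 300 bp each, which is 1 calling window and the smallest gap in the list. They covered 2100 of 2700 bp, and the last ended 0.2 kb before the gene did, the closest approach of any member's domain to a gene end.

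Of 292 protein-coding arm genes within 20% of the length of NRPE1, 4 (1.37%) had at least as many bases in H3K27me1 domains. The nearest 5mC domain lay 5.5 kb outside the gene. NRPD1 and NRPE1 thus had equal H3K27me1 bases in differently placed domains. In NRPD1 they lay between 11.6 and 64.7% of the gene, counted from the end with the lower coordinate. In NRPE1 they lay on both sides of a free middle stretch. Places relative to the direction of transcription were not compared.

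NRPD2, the second subunit of polymerases IV and V, had the lowest H3K27me1 coverage of the class, 22.6% of 6638 bp. Its domains lay on chromosome 3 from 8569201 to 8570100 (900 bp, 341 reads) and from 8571301 to 8571900 (600 bp, 250 reads). Of 966 protein-coding arm genes within 20% of its length, 68 (7.04%) had at least as many H3K27me1 bases. Another domain, from 8565601 to 8567100 (1500 bp, 746 reads), lay outside, 0.5 kb before the end with the lower coordinate. It covered 74.9% of the neighbouring gene AT3G23770. The nearest 5mC domain was 7.2 kb away.

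NRPB1, whose product carries the tail on which processing factors of messenger RNA assemble, showed the reverse pattern, with 5mC over 2700 of 7571 bp and no H3K27me1 domain within 27.4 kb. Its 5mC domains lay on chromosome 4 from 16961551 to 16962300 (750 bp, 2337 reads) and from 16962601 to 16964550 (1950 bp, 1367 reads), 300 bp apart. Together they reached from 1.0 to 4.0 kb of the gene. The narrow one made up 27.8% of the covered bases and held 63.1% of the reads. Of 621 protein-coding arm genes within 20% of the length of NRPB1, 8 (1.29%) had at least as many 5mC bases.

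NRPC1, the polymerase III counterpart, had a single H3K27me1 domain, on chromosome 5 from 24176701 to 24177300 (600 bp, 245 reads), 3.4 kb from the end with the lower coordinate. Of 187 protein-coding arm genes of like length, 38 (20.3%) had at least as many H3K27me1 bases. A 5mC domain from 24183751 to 24184200 (450 bp, 742 reads) lay 0.1 kb outside NRPC1, within AT5G60050, a gene whose annotation overlaps NRPC1. A gene border moved by 500 bp would add it, and NRPC1 would then count as touched by 5mC.

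NRPA1, the largest subunit of the polymerase that transcribes ribosomal RNA genes, and NRPB2, the second subunit of polymerase II, lay far from domains of either kind. The nearest H3K27me1 domain was 7.9 kb from NRPA1 and 15.4 kb from NRPB2. The nearest 5mC domain was 7.7 kb and 21.5 kb away. NRPB1 and NRPB2, partners in polymerase II, thus differed in 5mC, with 35.7% and 0% of the gene covered. Of the genes of like length, 43.7% had no base in either list.

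**Figure D2:**
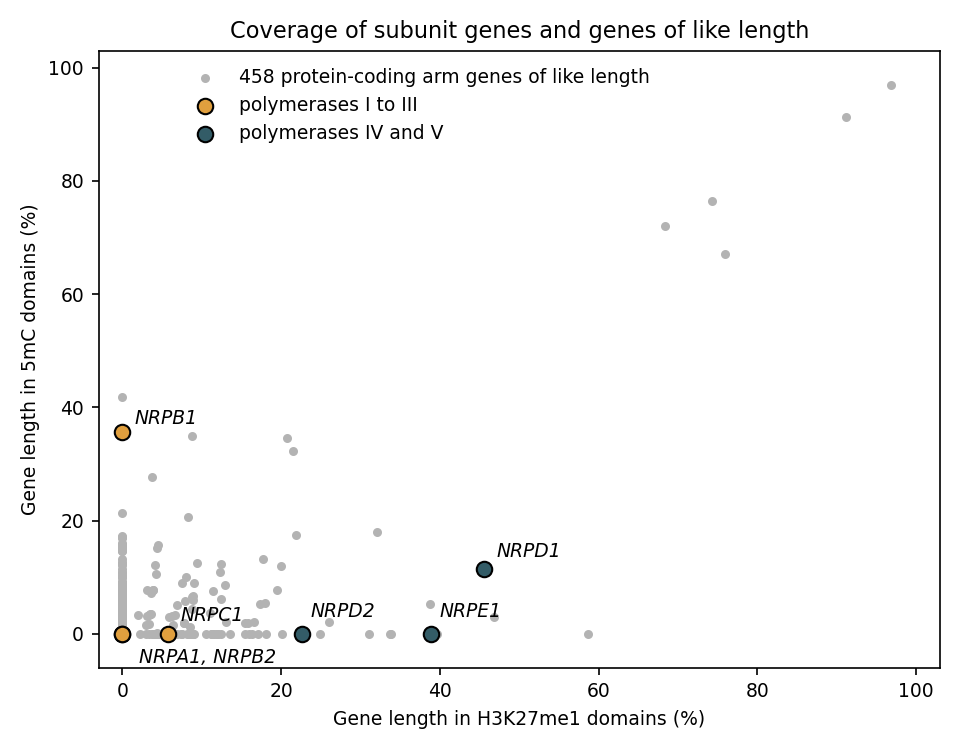
Percent of gene length in H3K27me1 domains (horizontal) against percent in 5mC domains (vertical) for the 7 members, coloured by polymerase class, and for 458 protein-coding arm genes between the shortest and the longest member in length (grey). NRPE1 and NRPD2 lie on the H3K27me1 axis at 38.9 and 22.6%, NRPD1 lies above it at 45.5% in H3K27me1 and 11.4% in 5mC, NRPB1 lies on the 5mC axis at 35.7%, and NRPA1 and NRPB2 share the origin.

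The domains of H3K27me1 in the members differed in how densely they were filled with reads. Reads per kb were computed from the authors' read count and the width of each domain, and compare domains within 1 list only. The median over the whole H3K27me1 list was 446.7 reads per kb, and over its arm domains 411.7. In the members, 8 of 9 domains were below the median of the list and 6 of 9 below that of the arm domains. In 4 of 9 the density was above that of over 60% of arm domains of the same width. The domain above the median of the list was the wider domain of NRPD1, with 555.7 reads per kb, above 72.9% of the list and above 69.0% of the 84 arm domains of the same width.

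The domains of NRPE1 had 314.4, 329.3, 338.3 and 415.0 reads per kb, and 3 of the 4 were the sparsest in any member. The lowest of them exceeded only 1.40% of the list, and the 1500 bp domain only 5.49% of the 255 arm domains of its width. The domains of NRPD2 had 378.9 and 416.7 reads per kb, and that of NRPC1 had 408.3. These 3 were above 46.4, 66.0 and 62.2% of the arm domains of their width. Domains of NRPD2 and NRPC1 were thus ordinary among arm domains of their own width. In NRPE1, 3 of the 4 domains were weak among arm domains of their own width, while the last of the 4 exceeded 65.3%.

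The 5mC domains of NRPB1 lay at opposite ends of their list. The narrow one had 3116 reads per kb, against a median of 1073 over the list and 1040 over its arm domains, and ranked 80 of 5801 arm domains and 10 of 376 of the same width. The adjoining wide one had 701.0 reads per kb and exceeded 14.9% of the list. Both 5mC domains of NRPD1 were sparse, with 630.0 and 525.0 reads per kb, above 8.07 and 2.13% of the list.

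With the denser domains of each list, those with reads per kb above its median, 1 of 7 members was touched by H3K27me1 (NRPD1) and 1 of 7 by 5mC (NRPB1). The shares among genes of like length were then 5.90% and 18.8%. NRPD1 kept 26.6% of its length in H3K27me1 and NRPB1 9.91% in 5mC, whereas NRPE1, NRPD2 and NRPC1 were left with none. With domains of at least 1000 bp NRPD1 kept 45.5% and NRPE1 16.2% in H3K27me1, and NRPD2 had none.

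**Figure D3:**
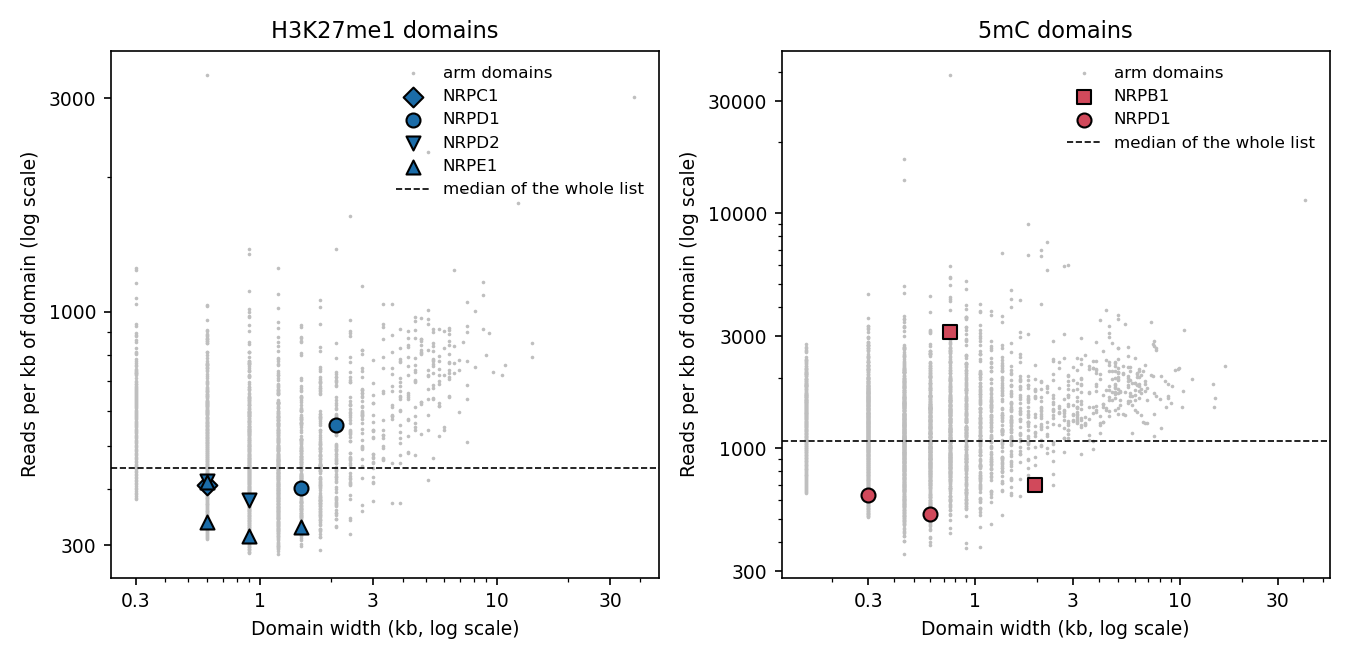
Reads per kb against domain width, both on log scales, for arm domains of each list (grey) and for the domains inside the members (symbols by gene), with the median of the whole list as a dashed line. The H3K27me1 domains of NRPE1 lie between 314.4 and 415.0 reads per kb, below the median, and the narrow 5mC domain of NRPB1 stands out at 3116.

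A search for symbols or synonyms of NRPA to NRPE followed by a number found 21 other subunit genes, with a median length of 1676 bp. Subunit genes listed only under other names would be missed by it. Of the 21 genes, 17 had no base in either list, as had 69.0% of all protein-coding genes, whose median length was 2078 bp. H3K27me1 touched 3 of the 21 and 5mC 2 of the 21, against 22.3% and 15.6% of all protein-coding genes. The short genes of the smaller subunits, from 1189 to 2351 bp, were touched by H3K27me1 in 2 of 18 cases and by 5mC in none. These were NRPB11 (11.8%) and NRPD7 (4.46%), in which a domain reached into the gene over 164 and 53 bp. Among the longer second subunits, NRPA2 of polymerase I had 1.92% in 5mC alone, and NRPC2 of polymerase III had neither mark. NRPD2B, the paralogue of NRPD2, had 15.2% in H3K27me1 and 2.54% in 5mC. Paralogues can share reads, and how reads with several matches were treated is not stated in these sources, so that the values of NRPD2 and NRPD2B are uncertain to that extent.

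Factors that act with polymerases IV and V in RNA-directed DNA methylation were then set beside them. Of 19 such genes, 10 were touched by H3K27me1 and 8 by 5mC, with 7 touched by both. The shares of all protein-coding genes were 22.3% for H3K27me1 and 15.6% for 5mC. Among arm genes of the members' lengths they were 25.3% and 44.8%, with 13.8% touched by both lists. The 19 genes had a median length of 4184 bp, between the 2078 bp of all protein-coding genes and the lengths of the members. No share was computed for genes of that length, and the part of gene length in these counts was not tested. Pooled shares of the 19 genes were 18.6% for H3K27me1 and 9.66% for 5mC, against 7.70% and 3.79% over all protein-coding genes. The median shares were 9.64% and 0% against 0% and 0%. Both CLSY1 and DCL3 lay in pericentromeres, the gene-poor sequence around centromeres.

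All 4 CLSY genes, whose proteins recruit polymerase IV to its loci, had H3K27me1 domains, over 36.1% (CLSY3), 44.0% (CLSY2), 49.7% (CLSY1) and 61.6% (CLSY4) of their length. Another partner of polymerase IV, RDR2, which turns its transcripts into double-stranded RNA, had 71.7% in H3K27me1 and 28.7% in 5mC domains. SHH1, a reader of histone methylation that recruits polymerase IV, had no base in either list.

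On the side of polymerase V, SPT5L, an elongation factor that binds ARGONAUTE proteins, had 21.5% in H3K27me1 and 32.3% in 5mC domains. SUVH2 and SUVH9, which bind methylated DNA and recruit polymerase V, had 15.2 and 9.64% in H3K27me1 and 22.9 and 43.4% in 5mC domains. The remodeller DRD1 had 14.7% in 5mC domains alone. Its partners DMS3 and RDM1 had neither mark, nor did AGO4, AGO6, DRM2, HEN1 and RDM4. The small RNA producer DCL3 had 900 of its 7473 bp in H3K27me1 domains alone, and the RNA-binding protein gene IDN2 had 17.7% in each. With the denser H3K27me1 domains 5 of the 19 genes were touched, 2 of them CLSY genes. The shares were 8.23% of all protein-coding genes and 5.90% of arm genes of the members' lengths. The touched genes were CLSY1, CLSY2, DCL3, SPT5L and SUVH9, of which CLSY1 and DCL3 lie in pericentromeres and not on arms. RDR2, CLSY4 and CLSY3, widely covered in the full list, had no base in the denser domains, nor had IDN2 and SUVH2. With the denser 5mC domains 2 of the 19 genes were touched, beside 18.8% of arm genes of the members' lengths.

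Transcription partners of polymerase II were described in the same way. Of 13 genes, 8 were touched by 5mC and 2 by H3K27me1, with pooled shares of 5.42% and 2.53%. The H3K27me1 count, 15.4% of the 13 genes, stands beside 22.3% of all protein-coding genes and 25.3% of arm genes of the members' lengths. Pooled shares over all protein-coding genes were 3.79% for 5mC and 7.70% for H3K27me1. In arm genes of the members' lengths they were 3.71% and 3.63%. These differences were not tested. The elongation factor gene SPT6L had the highest 5mC share, 14.8%, with no H3K27me1, and its densest domain had 4225 reads per kb. Among the subunits of Mediator, the complex that links activators to polymerase II, MED12 had 7.19%, MED13 5.40% and MED14 8.58% in 5mC domains. MED14 also had 12.9% in H3K27me1. The histone chaperone gene SPT16 had 26.9% in H3K27me1 and 6.73% in 5mC. The histone acetyltransferase gene TAF1 had 4.28% in 5mC domains alone. SPT5-2 (4.91%) and SSRP1 (7.81%), also with 5mC alone, lie in pericentromeres. Both TATA-binding protein genes, TBP1 and TBP2, had neither mark, nor did SPT5-1, TAF2 and TFIIS. The genes of this list are long, with a median of 6113 bp, and on the arms 6 of 11 were touched by 5mC, beside the 44.8% of arm genes of the members' lengths.

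**Figure D4:**
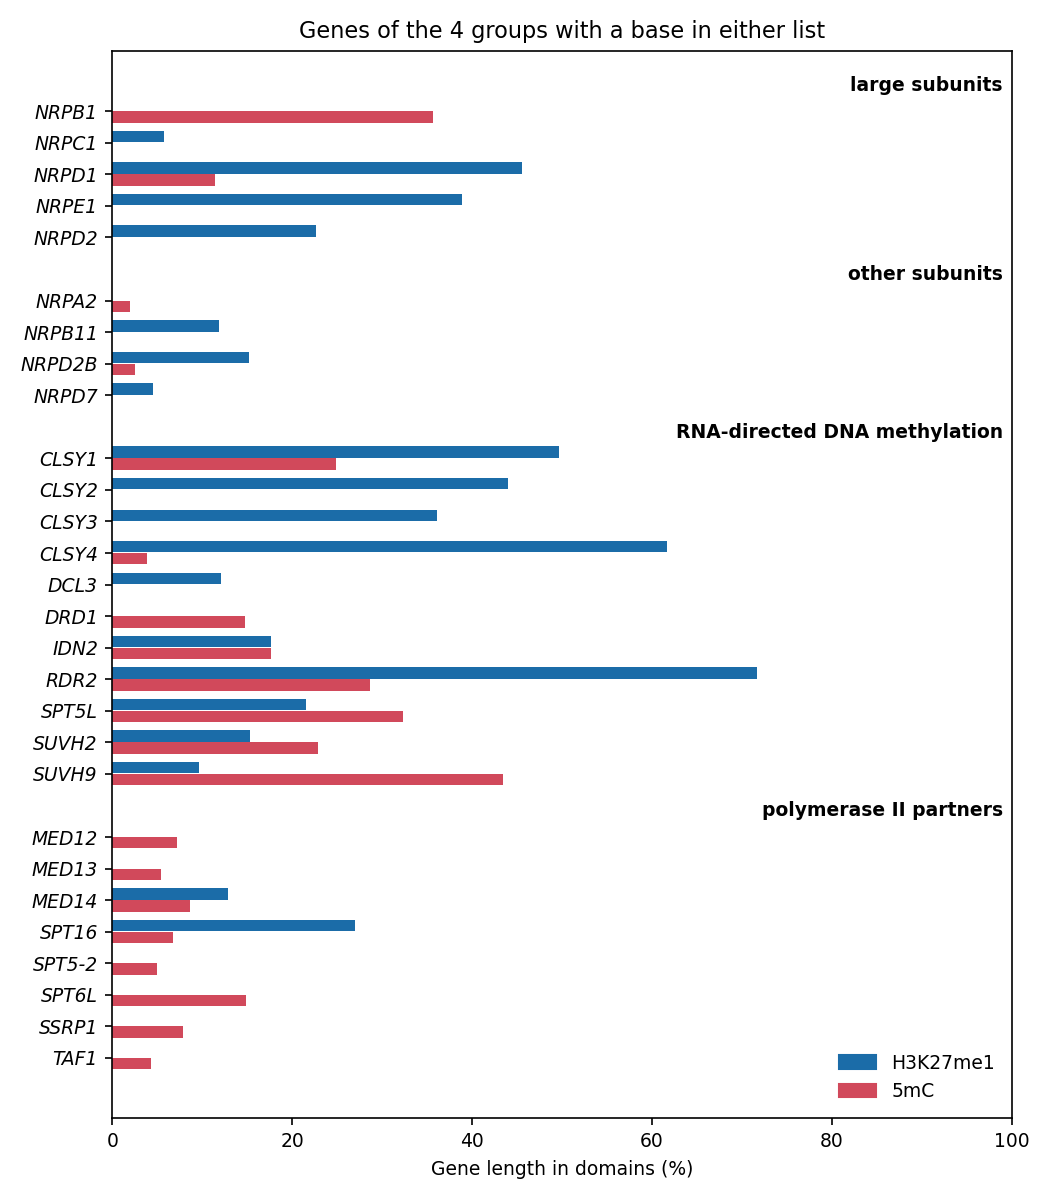
Percent of gene length in H3K27me1 (blue) and 5mC (red) domains for every gene of the 4 groups with a base in either list. Blue bars over 30% are those of NRPD1, NRPE1, the 4 CLSY genes and RDR2, and the partners of polymerase II have red bars of 4.28 to 14.8%.

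Genes nearest to a member in the pair of coverage values were sought among protein-coding arm genes within 20% of its length, by Euclidean distance over the 2 marks. For NRPB1 the nearest were the disease resistance gene RPP4 (0% in H3K27me1 and 41.9% in 5mC domains) and DCL1, which processes microRNAs (3.70 and 27.8%), followed by AT2G25050 (8.73 and 34.9%). For NRPD1 they were AT3G48770 (46.9 and 2.95%), CSI1, which links cellulose synthase to microtubules (38.7 and 5.28%), and AT4G35380 (47.2 and 0%), at distances of 8.54 to 11.5 percentage points. For NRPE1 they were AT4G38780 (33.7 and 0%), then CSI1 and AT3G48770, at 5.16 to 8.51 percentage points. Close matches were found for NRPD2, namely HA7, AT3G10310 and AT1G74770, and for NRPC1, namely AT4G17610, AT5G24350 and ICU2, all within 0.551 percentage points. Likeness over 2 values is a description and says nothing of shared control.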

How the data were processed

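Leaf samples were grouped by the labels into 2 H3K27me1, 2 5mC and 2 input samples. Per the submitters' processing notes, reads were handled with Bowtie and SICER on TAIR10. Not given in the sources used here are versions, calling thresholds, pooling of replicates, use of the inputs and treatment of reads with several matches. The deposited count is a whole number of reads per domain, not normalized by the authors as far as the values show. The lists held 13068 (H3K27me1) and 12238 (5mC) domains, whose widths are multiples of 300 and 150 bp and whose lowest counts are 114 and 97 reads. Domain reads sum to 12706852 and 28021211, which is not library depth; the depth is unknown.

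Positions were converted to count from 1. Overlaps with genes were computed in Python 3.11.15 with numpy 2.4.6 and pandas 2.3.3; the overlap step gave 0 wrong values for 20000 simulated intervals. Genes came from the RefSeq table of assembly TAIR10.1, none of whose coordinates is printed. Pseudogenes of that assembly were shifted by up to 5000 bp against the domains. For each mark the best overlap was within 50 bp of offset 0 in all 17 segments of 5 Mb that held enough pseudogenes to be checked. Segments with fewer pseudogenes were not checked. Pericentromeres are windows of 100 kb, averaged over 11, with protein-coding coverage under 0.7 of the chromosome's median around the minimum. Named genes are all members, list genes with a base in either list, the 3 nearest genes by coverage and the neighbours of members; list genes with no base in either list are also named, chosen after their values were seen. The members and lists were chosen with earlier results of these data known. No test was run.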

Additional observations from a re-analysis of the deposited data

How the results depend on the processing

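Counts of touched genes depended on weak and narrow domains. The 3 genes of polymerases IV and V with H3K27me1 became 1 with the denser domains (reads per kb above the list's median), and the 1 gene with 5mC became 0 there and with domains of at least 1000 bp. For polymerases I to III, the 1 gene with H3K27me1 became 0 with the denser domains, with domains of at least 1000 bp and with domains shortened by 1 window at both ends, and the 1 gene with 5mC became 2 when genes were widened by 500, 1000 or 2000 bp. No member reached 50% or 80% coverage in either list, so that all 4 counts were then 0. The H3K27me1 difference between the classes (34.8 percentage points) was 21.4 with domains of at least 1000 bp, 8.82 with the denser domains and 16.4 with shortened domains. The 5mC difference (-4.01) was -2.16 with the denser domains, -5.63 with domains of at least 1000 bp and -4.80 with shortened domains. Leaving out 1 gene gave -7.04 (NRPA1), -5.98 (NRPB2), -7.34 (NRPC1), -7.79 (NRPD1), -1.60 (NRPE1), -2.55 (NRPD2) and 3.78, the reverse direction, without NRPB1. Domain edges are known to 1 window only, which limits the precision of a share. No paired analysis was possible because the lists give no values per replicate, and for the same reason no replicate could be left out.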

Other observations

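Among the genes next to or overlapping the members, AT1G63010, NTT, AT3G23770 and AT5G60050 held domains and the others had none. AT3G23770, beside NRPD2, was covered to 74.9% by H3K27me1, and AT5G60050 to 21.8% by 5mC. As background, 69.0% of all protein-coding genes had no base in either list. Of the genes next to NRPB1, NRPB2 and NRPE1 on either side, none had a base in either list. Beside NRPD1, AT1G63010 was covered to 11.4% by H3K27me1 and to 19.9% by 5mC, in a stretch where a 5mC domain from 23348851 to 23349900 on chromosome 1 (561 reads) held the whole of a 600 bp H3K27me1 domain (206 reads). Beside NRPA1, the gene NTT, 7.6 kb away, had 10.6% in each list.

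An annotated U2 snRNA gene, AT3G08945, overlaps NRPA1 and had no base in either list. Among the 458 arm genes of the members' lengths, 11.6% were touched by H3K27me1 alone and 31.0% by 5mC alone.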
